A study of Mus musculus with 12 samples.

Results

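These data ask what a second antibody added to the expression profile of a mouse melanoma already treated with the first. The comparison sets 3 tumour libraries from mice given anti-B7-H3 together with anti-PD1 (the combination) against 3 from mice given anti-B7-H3 alone, which are 6 of the 12 libraries of the series. Libraries were placed in the groups by their titles. These are the groups with the fewest reads of satellite-like and olfactory receptor genes in the series, and the pair was proposed with those values known. All tumours were subcutaneous grafts of YUMM2.1, a mouse melanoma cell line, in immunocompetent C57BL/6J mice, and dosing began at tumour volumes of 20 to 50 mm3. The other 6 libraries, 3 from mice given isotype control IgG and 3 from mice given anti-PD1 alone, are used only where named. RNA came from whole skin tumours, so each value mixes graft cells with the host's immune, stromal and neighbouring cells. The labels do not say whether the 3 libraries of a group came from separate mice, so each p-value measures only the spread between libraries, which may be technical.

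B7-H3, the product of Cd276, is a surface protein of the B7 family found on many tumour cells, and is best known as a brake on T and natural killer cells. PD1, the product of Pdcd1, is an inhibitory receptor on activated T cells. Its ligands PD-L1 (Cd274) and PD-L2 (Pdcd1lg2) are carried by tumour cells and by myeloid cells, and both rise under interferon-gamma, the cytokine that activated T and natural killer cells release. Blocking PD1 is used in melanoma to release T cells from this brake. The design text of the series names T cells, natural killer cells, dendritic cells, B cells and macrophages as the populations of interest.

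Anti-B7-H3 libraries held 3593110 to 3937727 reads and combination libraries 4409772 to 5014931. A set of 12 satellite-like genes took 0.0944% to 0.222% of reads in the former and 30.1% to 34.0% in the latter, and was left out, which left 3570258 to 3918163 and 2902813 to 3493133 reads. Olfactory, vomeronasal and taste receptor genes, which serve here as a gauge of background, had 0.0835 to 0.0971 reads per kilobase of coding length in anti-B7-H3 libraries and 0.645 to 0.770 in combination libraries. Olfr93, an olfactory receptor gene among the leading genes upward described below, was counted in this gauge. Its part in the combination's rate was not separated. That background amounted to 0.0762% to 0.0972% and 0.773% to 0.795% of the remaining reads. Mitochondrially encoded genes took 1.45% to 1.57% and 1.69% to 1.81% of them. These differences run with the groups, and their part in the results was not tested. Libraries of 1 group differed from each other by little more than counting noise, with median chi-squares per gene of 0.544 to 0.569 where counting alone gives 0.455. Between the groups the median was 2.11 to 2.37. Gene levels are given as CPM, the reads of a gene per 1000000 reads outside the satellite-like genes, on TMM-scaled library sizes.

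Adding anti-PD1 went with broad differences in both directions. Of 12262 genes tested with edgeR's quasi-likelihood test, 2645 (21.6%) were called higher in combination tumours and 2793 (22.8%) lower, at a Benjamini-Hochberg adjusted p under 0.05. Differences of at least 2-fold were called for 406 genes upward (3.31%) and 645 downward (5.26%). Over all genes tested the median log2 fold change was 0.00. With the 12 libraries in 1 fit, 60.7% of called genes were higher, against 48.6% in the fit of 6 libraries. Genes of macrophages, antigen presentation, complement, T and natural killer cells and above all antibody-secreting cells were lower in the combination. Genes of cell division, a set of interferon-stimulated genes and genes of skeletal muscle were higher.

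**Figure D1:**
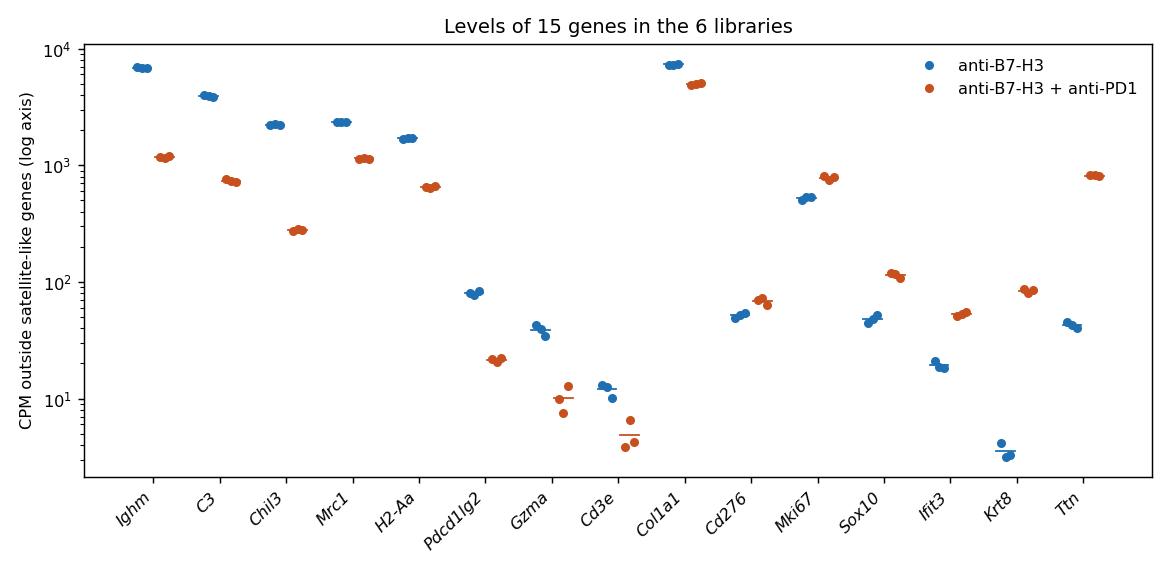
Levels of 15 genes in each of the 6 libraries, in CPM on a log axis, with anti-B7-H3 in blue, the combination in orange and a line at each group's mean. For every gene drawn the groups do not overlap, from Ighm near 6841 and 1174 CPM to Cd3e near 12 and 4.87 CPM. The same held for 6272 of all 12262 genes tested.

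The antibody targets and their partners moved unequally. Cd276 (chr9:58524298-58555437, GRCm38), the B7-H3 gene, measured 49.1, 51.9 and 54.2 CPM in the anti-B7-H3 libraries and 70.6, 72.8 and 63.7 CPM in the combination libraries. Every combination library was above every anti-B7-H3 library, and the log2 fold change of 0.41 ± 0.09 (SE) passed the test (adjusted p = 5.7e-05). Pdcd1 (chr1:94038305-94052553) was scarce, with 4.65, 5.13 and 4.13 CPM against 2.25, 4.1 and 4.83 CPM. Its groups overlapped, and the log2 fold change of -0.30 ± 0.34 (SE) missed the threshold (adjusted p = 0.51), so a difference was not detectable at 51 and 36 reads per group. Both PD1 ligands fell. Cd274 (chr19:29367455-29388095) went from 46.3, 45.6 and 45.9 CPM to 25.4, 26 and 26.4 CPM, a log2 fold change of -0.82 ± 0.12 (SE) with adjusted p = 1.2e-10. Pdcd1lg2 (chr19:29410919-29471161), its neighbour on the same chromosome, went from 80.1, 77.5 and 83.9 CPM to 21.8, 20.5 and 22.5 CPM, a fall of 3.71-fold (log2 fold change -1.89 ± 0.11, SE, adjusted p = 2.7e-43). The drop in PD-L2 RNA thus reached a log2 value of -1.89 where that in PD-L1 RNA reached -0.82.

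The series title also names CD47 and beta-catenin. Cd47, the "do not eat me" signal that cells show to phagocytes, fell from 186, 186 and 203 CPM to 142, 147 and 128 CPM (-0.47 ± 0.06, SE, adjusted p = 8.6e-14). Its receptor on macrophages, Sirpa, fell further, from 325, 326 and 329 CPM to 165, 164 and 147 CPM (-1.05 ± 0.05, SE, adjusted p = 1.1e-57). Of 14 genes of this phagocytosis checkpoint, 10 fell and 2 rose, with a median log2 fold change of -0.63. The steepest was Cd24a, another such signal and also a surface marker of B cells and granulocytes, at 30.2, 30.5 and 26.7 CPM against 5.46, 3.42 and 5.4 CPM, 6.02-fold lower. Siglecg, the receptor for CD24, fell by 1.55 on the log2 scale. The risers were Lrp1 (0.07 ± 0.02, SE), a receptor for calreticulin on engulfing cells whose call was lost with an effective-length offset (adjusted p = 0.10), and Thbs1 (0.16 ± 0.04, SE), a secreted ligand of CD47. Lrp1 also lost its call with 12 libraries in 1 edgeR fit (adjusted p = 0.13). Ctnnb1, the beta-catenin gene, changed least of the called genes in the title, from 624, 606 and 627 CPM to 561, 550 and 589 CPM (-0.13 ± 0.03, SE, adjusted p = 4.6e-04), and lost its call when all 12 libraries were fitted together (adjusted p = 0.13). Of 9 tested Wnt and beta-catenin targets, 1 rose and 4 fell, with a median of -0.05. Axin2, the usual readout of this pathway, gave -0.05 ± 0.16 (SE), with an adjusted p of 0.85. Ccnd1, the cyclin D1 gene, was the one that rose, from 178, 175 and 170 CPM to 294, 290 and 288 CPM (0.74 ± 0.05, SE). Of 15 genes of the destruction complex and its receptors, 5 rose and 2 fell, where 21.6% of all tested genes rose and 22.8% fell. The co-receptor gene Lrp5 rose by 0.57 ± 0.04 (SE) and the receptor gene Fzd1 fell by 0.47 on the log2 scale.

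Of 12 tested genes of the B7 and CD28 families, 7 fell and 1 rose (Cd276), with a median of -0.59. Vsir, which encodes the checkpoint protein VISTA of myeloid and T cells, fell from 130, 131 and 129 CPM to 63.5, 59.2 and 54.6 CPM. Of 17 genes that carry PD1's signal or mark its T cell programme, 13 fell and none rose (median -0.79). Ptpn6, the phosphatase SHP-1, fell by 0.85 on the log2 scale. Its relative Ptpn11, the phosphatase SHP-2 that PD1 recruits, gave -0.06 ± 0.08 (SE) and missed the threshold (adjusted p = 0.6).

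Macrophage genes were lower throughout. All 17 tested members of the macrophage list fell, with a median log2 fold change of -0.90 where the median over all genes was 0.00 and 22.8% of genes fell. The summed level of the 18 members was 8008 to 8070 CPM in anti-B7-H3 libraries and 4092 to 4132 CPM in combination libraries. In bulk RNA, fewer macrophages and less of this RNA in each macrophage cannot be told apart, and the same holds for every cell type below. Adgre1, the F4/80 antigen, measured 389, 358 and 368 CPM against 171, 168 and 176 CPM, a log2 fold change of -1.11 ± 0.04 (SE). Cd68, a lysosomal protein of macrophages, measured 195, 193 and 207 CPM against 80.9, 78 and 84.4 CPM. C1qa, a chain of the first complement component that tissue macrophages make, fell 2.15-fold and the lysozyme gene Lyz2 fell 2.0-fold. Ptprc, the pan-leukocyte antigen CD45, looked at after these values were seen, fell 1.90-fold (439, 451 and 447 CPM to 232, 234 and 237 CPM).

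Genes of alternative activation, the macrophage state that interleukin-4 and interleukin-13 induce, were lower as well. All 11 tested members fell, with a median of -1.20. Chil3, the secreted chitinase-like protein Ym1, went from 2199, 2270 and 2216 CPM to 275, 283 and 279 CPM, 7.98-fold lower (log2 fold change -3.00 ± 0.03, SE, adjusted p = 5.1e-194). Retnla, the secreted protein Fizz1, went from 483, 530 and 482 CPM to 86.3, 95.4 and 98.9 CPM, 5.31-fold lower. Ccl8, a chemokine of such macrophages, fell 3.36-fold. Arg1, the arginase that depletes arginine around T cells, fell 2.30-fold, from 1722, 1770 and 1742 CPM to 751, 761 and 767 CPM. The mannose receptor gene Mrc1 fell 2.04-fold. Within this list the fall therefore ran from a log2 value of -0.81 to one of -3.00, and Chil3 and Retnla fell furthest. Of 11 tested myeloid suppressive genes, 8 fell and 1 rose. Nos2, inducible nitric oxide synthase, fell 2.42-fold, while Hmox1, the haem oxygenase, rose by 0.39 ± 0.06 (SE) on the log2 scale.

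Most monocyte and dendritic cell genes with enough reads to test fell. Of 8 monocyte genes 7 fell, with a median of -0.91. Ly6c2, the antigen of inflammatory monocytes, measured 19.4, 23.4 and 24.8 CPM against 3.85, 4.79 and 7.1 CPM, and the chemokine receptor gene Ccr2 82.7, 83.8 and 80 CPM against 44.3, 47.9 and 45.5 CPM. Ms4a4c gave 0.55 ± 0.36 (SE) without passing the test, and -0.17 without combination replicate 3. In the neutrophil list only 4 of 13 members had enough reads to test, and all 4 fell. Their median of -1.25 became 0.03 when genes with few reads were kept. Among the untested members, S100a8 had 10 reads over each group, S100a9 had 9 over the combination libraries against 10, Mmp8 11 against 8 and Ltf 12 against 14. The defining granule genes Ngp and Elane had 0 reads in both groups, so the tested neutrophil genes rest on Retnlg (2.90-fold lower), Csf3r (2.70-fold lower), Cxcr2 and Mmp9, which other cells also use. Cxcr2 lost its call without anti-B7-H3 replicate 1 or combination replicate 1 or 3 (adjusted p = 0.061 to 0.18). It also lost it with the DESeq2 Wald test (adjusted p = 0.11) and with 12 libraries in 1 edgeR fit (adjusted p = 0.055). Of 11 tested dendritic cell genes 7 fell. Batf3, needed for cross-presenting dendritic cells, measured 12.1, 11.7 and 10.7 CPM against 5.78, 3.08 and 4.26 CPM, and Cd209a fell by 1.58 on the log2 scale. Eosinophil genes fell too. Ccr3, the eotaxin receptor, measured 49.1, 46.4 and 48.7 CPM against 15.1, 8.55 and 14.5 CPM, and Siglecf 36.7, 43 and 34.4 CPM against 9.31, 11.3 and 11.4 CPM. None of the 5 mast cell genes tested passed, among them Cpa3 at -0.64 ± 0.41 (SE). All 6 tested Fc receptor genes fell (median -0.79), among them Fcgr2b, the inhibitory receptor for IgG, from 599, 599 and 616 CPM to 314, 324 and 322 CPM. Of 16 Toll-like receptor genes and adaptors 13 fell, Tlr8 by 1.02 on the log2 scale. All 17 cathepsin and lysosome genes fell, led by Ctsk, a collagen-degrading cathepsin (3.25-fold), and Ctss, which trims the class II chaperone (2.48-fold).

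**Figure D2:**
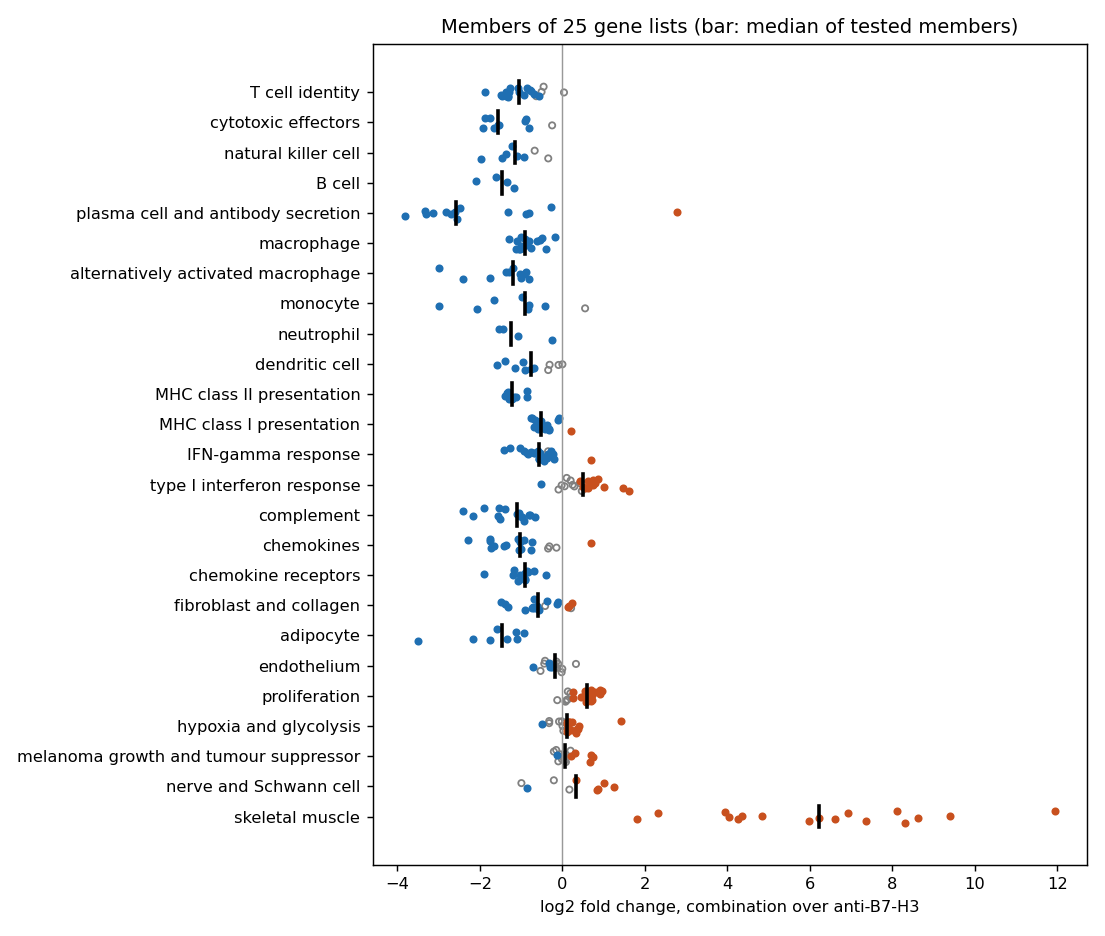
Log2 fold change of each tested member of 25 gene lists, combination over anti-B7-H3, with members called higher in orange, called lower in blue and not called as open circles, and a bar at each list's median. Immune lists lie left of 0 apart from the type I interferon response (median 0.49), and the proliferation (0.59) and skeletal muscle (6.22) lists lie to the right.

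Antigen presentation genes of both classes fell, with medians whose difference was not tested. MHC class II molecules, carried by macrophages, dendritic cells and B cells, show peptides to CD4 T cells. All 9 tested class II genes fell, with a median of -1.23. The summed level of the 11 class II genes present, tested or not, went from 12583 to 12738 CPM down to 5182 to 5279 CPM. The invariant chain gene Cd74 measured 5567, 5497 and 5589 CPM against 2404, 2324 and 2368 CPM. H2-Aa, a chain of the I-A molecule, measured 1692, 1707 and 1703 CPM against 654, 642 and 661 CPM, 2.60-fold lower (log2 fold change -1.38 ± 0.03, SE). Ciita, the master regulator of these genes, fell from 134, 125 and 136 CPM to 69.3, 71.1 and 77.9 CPM, 1.80-fold. Class I molecules, which nearly all cells carry, show peptides to CD8 T cells. Of 17 class I genes 16 fell and 1 rose, with a median of -0.51. H2-K1 went from 1269, 1258 and 1265 CPM to 820, 855 and 844 CPM (1.51-fold) and B2m, the light chain, from 1418, 1417 and 1371 CPM to 960, 990 and 968 CPM (1.44-fold). The riser was Canx, the chaperone calnexin, at 0.20 ± 0.03 (SE). Heavy chain genes of class I resemble each other, and no source used here says how the authors divided shared reads.

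Interferon-stimulated genes split by arm. Interferon-gamma acts in part through Irf1 and induces guanylate-binding proteins, immunoproteasome subunits and chemokines. Type I interferons induce antiviral genes such as the Ifit family. Of 23 tested interferon-gamma response genes, 21 fell and 1 rose (median -0.56), and all 8 genes of its receptor pathway fell (median -0.62). Of 22 type I genes, 12 rose and 1 fell (median 0.49), and their summed level went from 512 to 516 CPM up to 621 to 629 CPM. The promoters of genes from both arms are shown because the same short element occurs in genes that rose and in genes that fell. Each sequence runs from 250 bases before to 50 bases after a transcription start in RefSeq's annotation of GRCm38.p6, read 5′ to 3′ on the gene's own strand. The 5 lie at chr19:34583279-34583578 (Ifit3, plus strand), chr19:34640639-34640938 (Ifit1, plus), chr4:156200769-156201068 (Isg15, minus), chr16:10785487-10785786 (Socs1, minus) and chr11:53769764-53770063 (Irf1, plus). Capitals mark matches on either strand to the core of the interferon-stimulated response element, GAAANNGAA, and in Irf1 to the gamma-activated site, TTCNNNGAA.
Ifit3: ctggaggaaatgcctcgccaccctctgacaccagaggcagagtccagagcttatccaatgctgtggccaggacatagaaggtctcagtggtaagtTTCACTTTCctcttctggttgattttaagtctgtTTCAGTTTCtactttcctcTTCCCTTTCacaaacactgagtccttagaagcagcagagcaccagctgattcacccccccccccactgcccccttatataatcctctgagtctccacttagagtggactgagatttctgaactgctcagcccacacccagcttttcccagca
Ifit1: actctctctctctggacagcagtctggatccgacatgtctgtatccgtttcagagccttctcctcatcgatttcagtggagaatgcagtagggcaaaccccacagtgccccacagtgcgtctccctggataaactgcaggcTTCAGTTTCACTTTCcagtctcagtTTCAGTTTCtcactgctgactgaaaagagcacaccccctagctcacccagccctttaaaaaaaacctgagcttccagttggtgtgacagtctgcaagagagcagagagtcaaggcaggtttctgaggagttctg
Isg15: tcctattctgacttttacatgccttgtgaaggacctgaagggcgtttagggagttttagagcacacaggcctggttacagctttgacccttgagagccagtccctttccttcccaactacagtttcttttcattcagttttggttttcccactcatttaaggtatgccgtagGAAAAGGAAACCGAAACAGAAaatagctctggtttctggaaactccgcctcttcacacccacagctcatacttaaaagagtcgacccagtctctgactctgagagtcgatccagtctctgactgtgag
Socs1: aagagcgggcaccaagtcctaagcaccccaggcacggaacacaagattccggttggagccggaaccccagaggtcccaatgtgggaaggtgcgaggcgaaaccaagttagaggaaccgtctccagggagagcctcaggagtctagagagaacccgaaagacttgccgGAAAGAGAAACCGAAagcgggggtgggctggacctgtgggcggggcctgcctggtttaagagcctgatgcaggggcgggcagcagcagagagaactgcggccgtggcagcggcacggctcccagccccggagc
Irf1: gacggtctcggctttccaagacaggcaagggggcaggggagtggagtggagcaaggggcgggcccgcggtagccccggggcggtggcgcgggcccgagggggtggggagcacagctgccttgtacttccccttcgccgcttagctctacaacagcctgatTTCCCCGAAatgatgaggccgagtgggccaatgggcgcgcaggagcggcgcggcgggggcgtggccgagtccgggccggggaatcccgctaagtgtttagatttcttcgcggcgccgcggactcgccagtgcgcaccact
Where matches overlap, as in Ifit1, Isg15 and Socs1, the capitals run together. The element GAAANNGAA was present in 8.56% of all 32851 promoters in the RefSeq table and in 9.18% of tested genes with a promoter there. It was present in 11 of the 15 type I genes with a promoter in the table and in 10 of the 17 interferon-gamma genes. The site TTCNNNGAA was present in 8.30% of all promoters, in 3 of the 15 and in 8 of the 17. A match describes letters in a window and not a bound site.

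Ifit3, an RNA-binding antiviral protein, measured 20.9, 18.5 and 18.4 CPM in anti-B7-H3 libraries and 51, 53 and 55.7 CPM in combination libraries, 2.75-fold higher (log2 fold change 1.46 ± 0.12, SE, adjusted p = 8.9e-26). Ifit1, its neighbour and relative, measured 12.1, 14.8 and 15.4 CPM against 21.5, 20.2 and 23.3 CPM, 1.54-fold higher. Isg15, a ubiquitin-like protein, rose 1.43-fold (17.8, 18.8 and 14.6 CPM to 21.5, 26 and 25.6 CPM), and its lowest combination library stood clear of its highest anti-B7-H3 library by under 3 CPM. Ifi44 rose most, 3.05-fold, from a low level (2.84, 4.56 and 4.13 CPM to 9.95, 14 and 11.4 CPM). Zbp1, the nucleic acid sensor that can start necroptosis, was the type I gene that fell (56.6, 66.4 and 59.4 CPM to 45.9, 36.3 and 43.8 CPM, -0.53 ± 0.10, SE). Socs1, the inhibitor that interferon signalling induces against itself, carries the same element as Isg15 in the sequences above and fell 2.42-fold, from 21.2, 18.5 and 24.2 CPM to 8.34, 7.18 and 10.5 CPM (adjusted p = 5.3e-10). Irf1, the transcription factor that relays interferon-gamma, fell 1.89-fold, from 126, 136 and 134 CPM to 71.2, 67.4 and 70.5 CPM. The receptor genes Ifngr1 (1.66-fold) and Ifngr2 (1.72-fold) fell as well. Cxcl9, which draws T cells, fell 2.69-fold, from 34.4, 37.9 and 33.3 CPM to 13.8, 10.9 and 14.2 CPM. Gbp5 was the interferon-gamma gene that rose, from 66.7, 67.2 and 67.1 CPM to 110, 103 and 113 CPM. Its relative Gbp2 fell 1.36-fold.

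**Figure D3:**
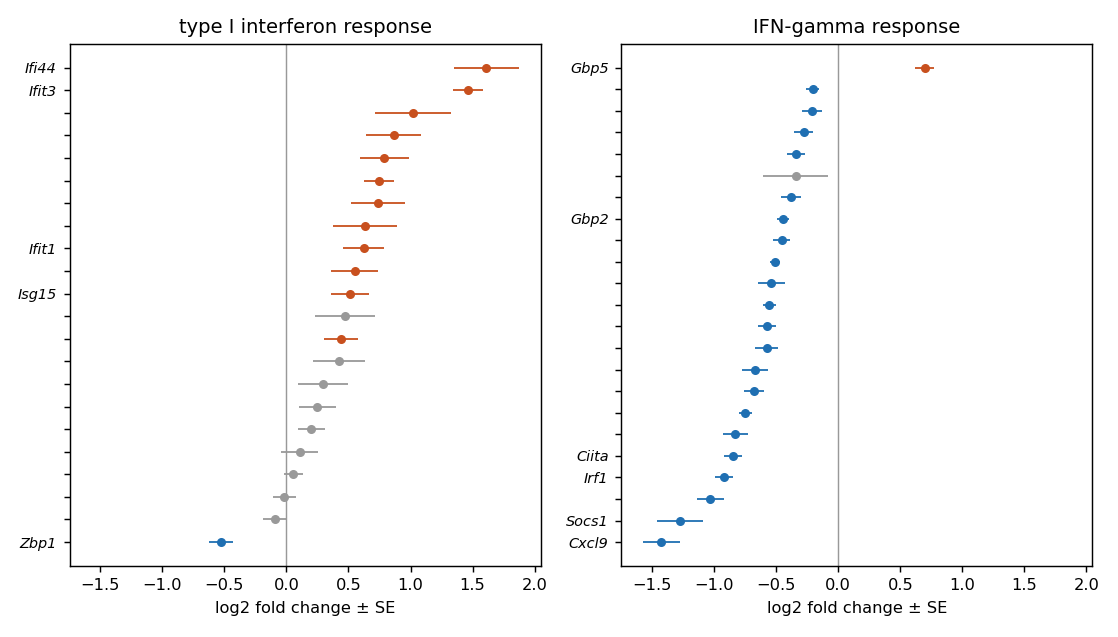
Log2 fold change with its standard error for each tested gene of the type I interferon list (left) and the interferon-gamma list (right), combination over anti-B7-H3, with called higher in orange, called lower in blue and not called in grey, and with names for the genes named in the text. Most type I genes lie right of 0 up to Ifi44 at 1.61, and all but Gbp5 of the interferon-gamma genes lie left of it.

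T cell genes were lower at low levels. Of 21 tested T cell genes 17 fell and none rose, with a median of -1.06, and the 24 members summed to 303 to 327 CPM against 158 to 168 CPM. Cd3e, part of the T cell receptor complex, measured 13.2, 12.5 and 10.2 CPM in anti-B7-H3 libraries and 3.85, 6.5 and 4.26 CPM in combination libraries (-1.31 ± 0.25, SE, adjusted p = 2.1e-06). Cd4, which macrophages carry too, fell 2.50-fold (-1.32 ± 0.21, SE). Cd8a measured 5.17, 7.98 and 9.35 CPM against 4.17, 5.13 and 3.69 CPM and passed the test less clearly (-0.79 ± 0.29, SE, adjusted p = 0.02). It lost its call without combination replicate 1 or 3 or anti-B7-H3 replicate 2 or 3 (adjusted p = 0.052 to 0.16). The call was also lost with the DESeq2 Wald test (adjusted p = 0.13) and with 12 libraries in 1 edgeR fit (adjusted p = 0.081). Trbc1, a receptor beta constant gene, fell by 1.88 on the log2 scale, while Trac, the alpha constant gene, gave -0.45 ± 0.25 (SE) and missed the threshold (adjusted p = 0.13). Of 12 tested checkpoint and costimulatory genes 8 fell and none rose (median -0.72), and Ctla4 measured 7.75, 5.13 and 6.05 CPM against 1.93, 2.74 and 3.13 CPM. Of 7 regulatory T cell genes 4 fell, but Foxp3, their defining factor, did not pass the test at 5.43, 5.41 and 6.05 CPM against 3.21, 4.79 and 4.26 CPM (adjusted p = 0.24).

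Genes of killing were lower as well. Of 10 tested cytotoxic effector genes 9 fell, with a median of -1.55, which became -1.04 without combination replicate 3. Gzma, granzyme A, measured 42.9, 39.3 and 34.4 CPM against 9.95, 7.52 and 12.8 CPM, 3.79-fold lower (adjusted p = 9.7e-26). Gzmb, granzyme B, measured 17.1, 18.2 and 23.1 CPM against 5.78, 6.16 and 6.54 CPM, 3.14-fold lower. Eomes, a transcription factor of killer cells, fell 3.67-fold. Prf1, the pore-forming perforin, gave -0.25 ± 0.18 (SE) and did not pass (17.3, 14.8 and 13.2 CPM against 12.2, 13 and 13.1 CPM). Interferon-gamma itself, Ifng, was too rare to test, with 18 reads over the anti-B7-H3 libraries and 5 over the combination libraries. Of 8 tested natural killer cell genes 6 fell (median -1.15). Klrc1, an NKG2 receptor, fell by 1.96 on the log2 scale and Ncr1, the receptor NKp46 that defines these cells, by 1.47. The 15 cytotoxic genes drew a mean of 24.1 times the background reads expected for them in combination libraries and 516 times in anti-B7-H3 libraries, so their levels in the combination stood well above it.

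The largest falls belonged to antibody genes. Of 14 tested plasma cell genes 13 fell and 1 rose, with a median of -2.57. The summed level of the 16 list members, tested or not, went from 9723 to 9820 CPM down to 1851 to 1865 CPM. Ighm, the heavy chain of IgM, was among the most read genes of these tumours. It measured 6889, 6825 and 6809 CPM in anti-B7-H3 libraries and 1180, 1153 and 1189 CPM in combination libraries, 5.82-fold lower (log2 fold change -2.54 ± 0.02, SE, adjusted p = 2.0e-210). The kappa light chain gene Igkc fell 6.45-fold (1900, 1965 and 1894 CPM to 305, 300 and 288 CPM). Jchain, which links IgM and IgA into polymers, fell 6.03-fold (373, 369 and 356 CPM to 57.8, 62.2 and 62 CPM). Ighg1 fell 10.1-fold, Iglc2 9.95-fold and Igha, at 9 reads over the combination libraries, 14-fold. Ighg2b went the other way, from 5.17, 5.7 and 5.78 CPM to 35, 35.9 and 42.6 CPM, 6.82-fold higher (adjusted p = 1.6e-36). Constant genes of the IgG subclasses are alike in sequence, and no source used here says how reads shared between Ighg1 and Ighg2b were divided. In B cells, which precede plasma cells, 4 of 12 marker genes could be tested and all 4 fell. Cd79b fell by 2.10 and Cd22 by 1.34 on the log2 scale, while Ms4a1, a B cell surface antigen, had 10 reads over the combination libraries against 37.

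Antibody variable genes, gathered after these values were seen, showed the same direction gene by gene. Of 88 tested, 76 fell and 3 rose, with a median of -3.37 and a range from -9.35 to 2.19. Igkv12-44, the most abundant of the leading genes downward, measured 115, 116 and 110 CPM against 3.21, 3.76 and 3.13 CPM, 33.6-fold lower. Igkv9-123 measured 20.7, 26.5 and 24.2 CPM in anti-B7-H3 libraries and had no read in the combination libraries, which makes it at least 75.5-fold lower when that group is set at 3 reads in all. Igkv6-32 had 343 reads against 1, a ratio of 298 with a 95% counting interval of 53.1 to 11791. As background, each antibody-secreting clone uses 1 heavy and 1 light variable gene, so the level of a single one can rest on few clones. Of the 15 leading genes downward, chosen by size of change with mean levels of at least 5 CPM, 14 were antibody variable genes. The other was Arhgap39, a GTPase-activating protein, at 8.53, 49 and 44 CPM against 0, 1.71 and 1.42 CPM (-4.95 ± 1.36, SE, adjusted p = 0.046). Anti-B7-H3 replicate 1 lay far below the other libraries of its group, and the call was lost when any library but that one was left out (adjusted p = 0.11 to 0.15). The call was also lost when genes with few reads were kept (adjusted p = 0.071), and with an offset for effective length the log2 fold change of Arhgap39 was -2.32 (adjusted p = 0.298).

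**Figure D4:**
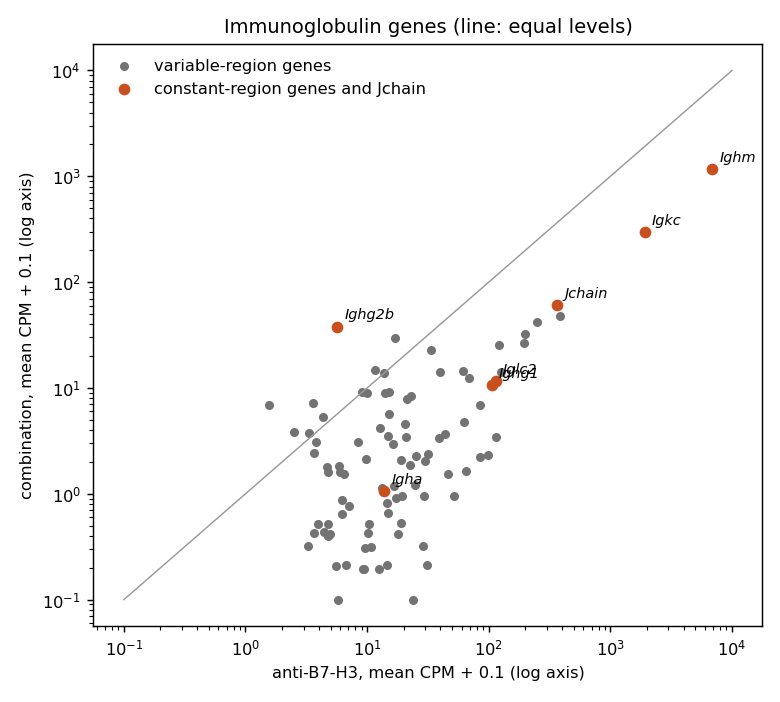
Mean level of each tested antibody variable gene (grey) and of 6 constant-region genes and Jchain (orange), anti-B7-H3 on the horizontal and the combination on the vertical log axis, as CPM plus 0.1, with a line of equal levels. Nearly all lie below the line, and Ighg2b (5.55 against 37.8 CPM) lies above it.

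Complement and chemokine genes fell with the myeloid genes. All 15 complement genes fell, with a median of -1.10. C3, the central component that coats targets for phagocytes, measured 3964, 3919 and 3849 CPM against 755, 736 and 717 CPM, 5.32-fold lower (adjusted p = 1.0e-193). Cfd, factor D of the alternative pathway and also a product of fat cells, fell 4.46-fold, and C2 fell 3.75-fold. Of 18 tested chemokine genes 14 fell and 1 rose (median -1.03). Ccl5, made by T and natural killer cells, measured 21.4, 19.1 and 17.9 CPM against 4.81, 4.45 and 7.67 CPM. Cxcl12, made mostly by stromal cells, fell by 2.28 on the log2 scale, though its anti-B7-H3 libraries were uneven (17.8, 16 and 7.7 CPM). Cx3cl1, the membrane-bound chemokine fractalkine, was the riser (35.4, 30.8 and 25.9 CPM to 45.6, 52.3 and 52 CPM). All 12 tested chemokine receptor genes fell (median -0.91). Of 11 tested inflammatory cytokine genes 5 fell and 1 rose. Il1b fell 1.84-fold and its natural antagonist Il1rn 2.41-fold, while Il18 rose by 0.64 ± 0.27 (SE) with an adjusted p of 0.046, a call lost without any one library other than anti-B7-H3 replicate 1 (0.059 to 0.21). Among other settings, the Il18 call was also lost with the DESeq2 Wald test (adjusted p = 0.19) and with 12 libraries in 1 edgeR fit (adjusted p = 0.11).

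The stroma changed in part. Of 19 fibroblast and collagen genes 14 fell and 3 rose, with a median of -0.59. Fn1, fibronectin, was the most read of them, at 17787, 17595 and 17619 CPM against 11010, 10893 and 10824 CPM (1.62-fold). Col1a1 fell 1.48-fold and Col3a1 1.52-fold. The small proteoglycans fell more, Dcn (decorin) 2.81-fold from 274, 272 and 256 CPM to 94, 104 and 89 CPM and Lum (lumican) 2.50-fold, as did Lox, which cross-links collagen (2.62-fold). Col5a1 (0.24 ± 0.02, SE), Col5a2 (0.16 ± 0.02, SE) and Fbln2 (0.13 ± 0.03, SE) rose by small amounts. Of 13 matrix proteases and inhibitors 12 fell, Mmp2 1.93-fold and the macrophage elastase Mmp12 1.84-fold. All 8 tested fat cell genes fell, with a median of -1.47, although at low levels. Adipoq, adiponectin, measured 6.2, 3.99 and 5.78 CPM against 1.28, 2.39 and 1.14 CPM and Fabp4 20.2, 21.1 and 25.3 CPM against 7.06, 7.87 and 10.8 CPM. Endothelial genes moved little, with 4 of 15 lower, none higher and a median of -0.18. That share of falls was near the 22.8% of all tested genes. Pecam1, which leukocytes share, fell 1.63-fold, while Cdh5, the cadherin of endothelial junctions, gave -0.02 ± 0.09 (SE) (adjusted p = 0.91). Of 10 pericyte and smooth muscle genes 4 fell and 2 rose. Cspg4, the NG2 proteoglycan that melanoma cells also carry, rose from 473, 475 and 450 CPM to 651, 635 and 678 CPM. In the TGF-beta pathway 4 of 16 genes rose and 7 fell. The shares that rose in the pericyte and TGF-beta lists were near the 21.6% of all tested genes. Tgfb2 rose by 0.57 ± 0.15 (SE) and Tgfb1 fell by 0.58 on the log2 scale.

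Genes of cell division were higher in the combination. Of 27 proliferation genes 21 rose and none fell, with a median of 0.59, where 21.6% of all genes rose. Their summed level was 2496 to 2646 CPM in anti-B7-H3 libraries and 3856 to 3962 CPM in combination libraries. Mki67, the antigen Ki-67 of cycling cells, measured 503, 530 and 539 CPM against 810, 753 and 789 CPM, 1.5-fold higher (log2 fold change 0.58 ± 0.03, SE, adjusted p = 4.8e-46). Genes of mitosis led. Cenpf, a kinetochore protein, measured 149, 160 and 185 CPM against 323, 327 and 313 CPM, 1.95-fold higher, and Kif11, the motor that drives spindle poles apart, 84.5, 86.9 and 88.3 CPM against 168, 154 and 165 CPM, 1.88-fold higher. Pcna, the sliding clamp of DNA replication, gave 0.10 ± 0.07 (SE) and missed the threshold (adjusted p = 0.23). Replication-dependent histone genes rose in 11 of 19 cases and fell in 2, with a median of 0.31. The linker histone gene Hist1h1b rose 1.67-fold. The promoters of the pair of mitotic genes, Kif11 at chr19:37376132-37376431 on the plus strand and Cenpf at chr1:189688037-189688336 on the minus strand (RefSeq, GRCm38.p6), show the cell cycle homology region, TTTGAA, in capitals.
Kif11: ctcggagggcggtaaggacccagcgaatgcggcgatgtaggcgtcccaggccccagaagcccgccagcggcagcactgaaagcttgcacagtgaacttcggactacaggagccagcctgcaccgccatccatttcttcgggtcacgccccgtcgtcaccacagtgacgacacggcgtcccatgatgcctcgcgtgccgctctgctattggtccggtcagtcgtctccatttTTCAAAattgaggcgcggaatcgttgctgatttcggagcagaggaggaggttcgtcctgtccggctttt
Cenpf: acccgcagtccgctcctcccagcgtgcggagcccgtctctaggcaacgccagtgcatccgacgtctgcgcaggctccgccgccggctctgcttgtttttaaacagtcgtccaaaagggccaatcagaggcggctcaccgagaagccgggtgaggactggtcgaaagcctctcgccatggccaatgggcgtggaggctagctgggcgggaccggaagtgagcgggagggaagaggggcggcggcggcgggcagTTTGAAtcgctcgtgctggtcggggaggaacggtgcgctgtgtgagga
That element lies 19 bases before the start in Kif11, on the reverse strand, and just after the start in Cenpf. It was present in 10 of the 22 proliferation genes with a promoter in the table, in 17.9% of all promoters and in 14.6% of tested genes. The CCAAT box, CCAAT on either strand, was present in 19 of those 22, in 37.4% of all promoters and in 42.7% of tested genes.

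Genes of the graft's own lineage were few and uneven. Sox10, the transcription factor of melanocytes, melanoma and Schwann cells, measured 44.2, 48.2 and 51.7 CPM against 119, 117 and 108 CPM, 2.38-fold higher (adjusted p = 7.2e-35). The neural crest genes Cdh19 (2.02-fold) and S100b (1.83-fold) rose with it, and 5 of 9 tested nerve and Schwann cell genes rose while 1, the myelin gene Mbp, fell. That call was lost without combination replicate 2 (adjusted p = 0.093) and with the DESeq2 Wald test (adjusted p = 0.060). Most pigment genes had few reads in both groups. Tyrp1 and Dct had 0 reads in anti-B7-H3 libraries and 2 and 4 over the combination libraries, and Pmel and Mlana had 8 and 5 against 4 and 1. Of the defining genes of the labelled tumour type, Sox10 was thus present, and these 4 pigment genes were at or near 0. Tyr, tyrosinase, was the exception and had 5 reads over the anti-B7-H3 libraries and 98 over the combination libraries, 20.9-fold higher in the fit. On a scale of all 12 libraries Tyr averaged 0.41, 9.17, 24.2 and 25.5 CPM with anti-B7-H3, the combination, anti-PD1 and isotype control. Those means follow the order of the satellite-like share of the groups, and a link was not tested. Mitf, the factor that drives pigment genes, fell by 0.44 on the log2 scale. Of 17 melanoma growth and tumour suppressor genes 5 rose and 1 fell, where 21.6% of all tested genes rose and 22.8% fell, so the share that rose was near that of all genes. Besides Ccnd1, the risers included Spry2 (0.69 ± 0.11, SE) and Etv4 (0.68 ± 0.11, SE), genes that respond to growth factor signalling, while Dusp6, another such gene, gave 0.08 ± 0.05 (SE) (adjusted p = 0.24).

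Among genes of metabolism and stress, differences were smaller. Of 22 hypoxia and glycolysis genes 14 rose and 1 fell, with a median of 0.11. Car9, the carbonic anhydrase that low oxygen induces, measured 20.2, 23.9 and 22.6 CPM against 61.9, 60.9 and 56.6 CPM, 2.69-fold higher. Slc2a1, a glucose transporter, rose 1.28-fold and Egln3 fell 1.40-fold. Of 13 mitochondrially encoded genes 11 rose and 1 fell (median 0.29). The largest was mt-Nd6, the one encoded on the opposite strand to the rest, at 217, 270 and 271 CPM against 540, 604 and 549 CPM. Of 19 nuclear genes for the respiratory chain 2 rose and 9 fell (median -0.18). Ribosomal protein genes fell in 19 of 22 cases and rose in none, by little (median -0.22). Of 17 immediate early genes 2 rose and 9 fell. Fos rose by 0.76 ± 0.14 (SE) and Nr4a1, a gene switched on by receptor signalling, by 0.69 ± 0.12 (SE), while Btg2 fell by 1.43 and Klf2 by 1.0 on the log2 scale. Of 14 genes of endoplasmic reticulum stress 2 rose and 7 fell. Ddit3 rose by 0.67 ± 0.17 (SE), and Xbp1, which plasma cells need in order to secrete, fell 1.76-fold. Of 18 cell death genes 2 rose and 5 fell, a share of falls near the 22.8% of all genes. Gsdmd, the pore protein of pyroptosis, was 1.83-fold lower.

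Skeletal muscle genes showed the largest rises. All 17 members rose, with a median log2 fold change of 6.22, or 5.41 when the 8 members with at most 3 reads over the anti-B7-H3 libraries are set at a floor of 3 reads. Their summed level was 106 to 121 CPM in anti-B7-H3 libraries and 1617 to 1669 CPM in combination libraries. Myh4, the myosin heavy chain of fast fibres, had no read in the anti-B7-H3 libraries and measured 143, 140 and 147 CPM in the combination libraries, at least 527-fold higher against that floor. Acta1, skeletal actin, had 1 read against 824, a ratio of 950 with a 95% counting interval of 170 to 37549. Ttn, the giant spring protein titin, measured 45.2, 43 and 40.2 CPM against 824, 817 and 808 CPM, 19.0-fold higher (adjusted p = 6.5e-178). Reads of the list in combination libraries were 47.3 times the background expected for those genes. Of the 15 leading genes upward, 10 encode muscle proteins (Myh4, Xirp2, Acta1, Tnnc2, Myl1, Myh1, Atp2a1, Mybpc2, Tnnt3 and Ckm). The labels do not say whether muscle lay beside the sampled tumour, and the part of neighbouring tissue was not tested. The promoter of Myh4 (chr11:67237562-67237861, plus strand, RefSeq, GRCm38.p6) is shown with the E box of myogenic factors, CAGCTG, in capitals.
Myh4: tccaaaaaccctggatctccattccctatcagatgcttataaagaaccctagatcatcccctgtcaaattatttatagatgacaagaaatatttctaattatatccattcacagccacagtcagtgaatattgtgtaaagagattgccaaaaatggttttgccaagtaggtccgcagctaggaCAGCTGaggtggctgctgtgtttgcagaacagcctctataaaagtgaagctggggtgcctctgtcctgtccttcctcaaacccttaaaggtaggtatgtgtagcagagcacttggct
That E box lies 67 bases before the start. It was present in 8 of the 13 muscle genes with a promoter in the table, in 16.3% of all promoters and in 17.9% of tested genes.

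Skin surface cells, the other neighbour of a subcutaneous graft, left few reads. Of 13 keratinocyte genes 10 were too rare to test, and Krt5 and Krt14 had 0 reads in anti-B7-H3 libraries and 1 and 5 over the combination libraries. Flg, filaggrin, was the one of the 3 tested that was called higher, with no read in anti-B7-H3 libraries and 40 over the combination libraries, at least 15.4-fold higher against the floor of 3 reads. Across 17 settings of the processing, 0 to 7 keratinocyte genes were called higher, so Flg was not called in every setting. With the expected background subtracted the list median was -0.59, against 0.04 in the main comparison. The 13 genes together drew a mean of 3.07 times the background reads expected for them in combination libraries and 14.3 times in anti-B7-H3 libraries. Flg averaged 34.6 CPM with anti-PD1 alone and 98.7 CPM with isotype control, where background was higher. Keratins of simple epithelia, looked at after their values were seen, stood out. Krt8 measured 4.13, 3.13 and 3.3 CPM against 87.6, 79.7 and 84.4 CPM and its partner Krt18 1.81, 1.14 and 1.38 CPM against 25, 22.2 and 20.2 CPM, 23.5-fold and 15.1-fold higher. Nefl, a neurofilament protein, looked at in the same way, measured 1.03, 2.28 and 1.93 CPM against 51.7, 43.4 and 44.3 CPM.

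Some genes of either direction also followed the order of the satellite-like share over all 4 groups of the series, which was 30.1% to 34.0% in the combination, 68.7% to 74.5% with anti-PD1 alone and 90.3% to 93.7% with isotype control. On the common scale of 12 libraries, Zfp277, a zinc finger gene named after its values were seen, averaged 746 CPM with anti-B7-H3, 3552 with the combination, 20763 with anti-PD1 and 79234 with isotype control. Olfr93, an olfactory receptor among the 15 leading genes upward, averaged 1.75, 107, 533 and 1541 CPM in that order. Of the 406 genes at least 2-fold higher, 404 could be placed on that scale, and 222 rose through the groups in that same order. Of the 645 at least 2-fold lower, 632 could be placed and 170 fell through the groups in it, Ighm and Mrc1 among them. The isotype control mean stood above the combination mean for 332 of the 404 (82.2%), against 37.9% of all genes with a fitted change above 0. It stood below the combination mean for 320 of the 632 (50.6%), against 70.8% of all genes with a fitted change below 0. Over all tested genes 12207 could be placed, of which 1276 rose and 2726 fell in that order. Those that rose included 1237 of the 6127 with a fitted change above 0, and those that fell 2726 of the 6080 with one below 0. Gbp5 (59.1, 97.8, 454 and 1670 CPM) and mt-Nd6 (223, 509, 1342 and 3011 CPM) did so too. Myh4 (0.00, 129, 22.9 and 30.6 CPM), Krt8 (3.11, 75.6, 130 and 50.4 CPM), Ifit3 (17, 48, 24.3 and 34.6 CPM) and Mki67 (463, 707, 944 and 755 CPM) did not. A link between a gene's reads and the satellite-like reads was not tested.

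**Figure D5:**
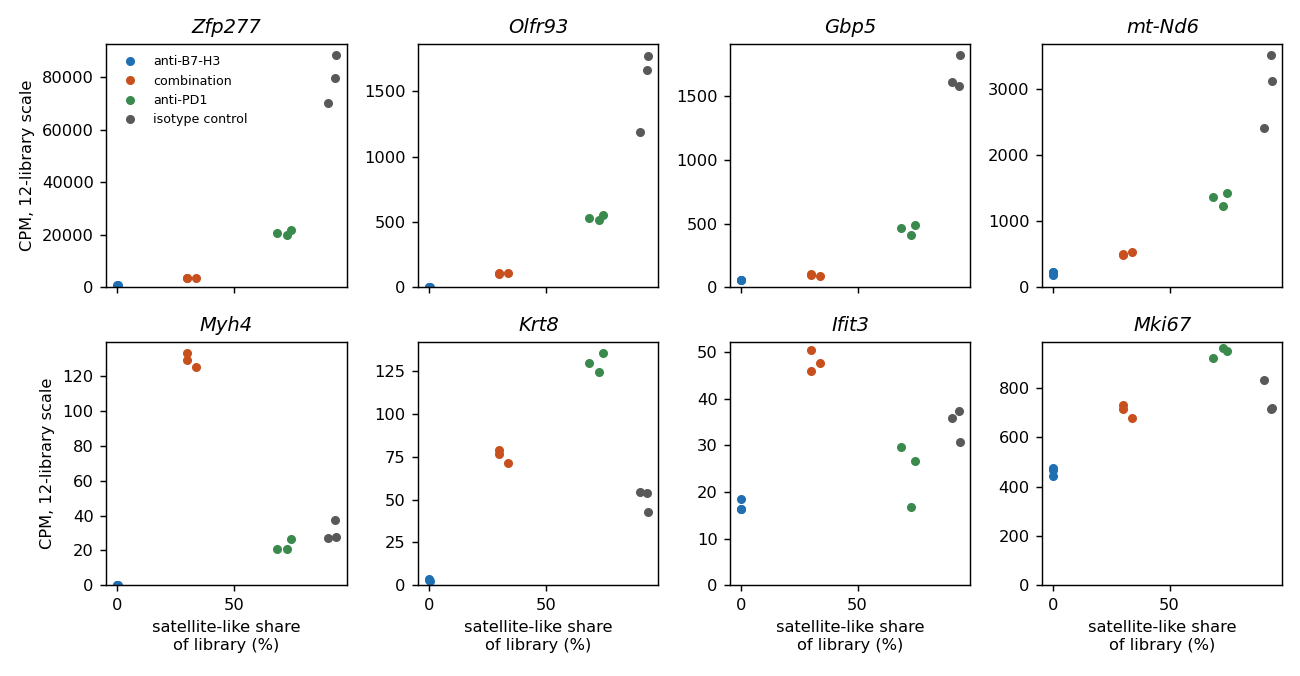
Level of 8 genes in each of the 12 libraries, in CPM on the scale of the 12-library fit, against the share of the library taken by satellite-like genes in percent, with 1 colour per group. The upper 4 genes rise with that share, and the lower 4 do not follow its order, with Myh4 highest in the combination near 129 CPM.

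Whether anti-PD1 went with the same differences when given without anti-B7-H3 was asked with all 12 libraries in 1 edgeR fit, as the difference between 2 contrasts. This interaction was called for 6797 of 16088 genes (42.2%), 3604 of them positive and 3193 negative. The balance moved with the scaling and the filter, to 4061 positive and 2464 negative with the size factors of DESeq2 and to 3638 positive and 4216 negative without a filter. The median interaction over all genes was 0.09, 0.22 and 0.32 on the log2 scale in these fits. The isotype control and anti-PD1 libraries carried more background, 18.1% to 19.0% and 6.49% to 7.33% of reads outside satellite-like genes. Among the 8138 genes whose reads summed over the 12 libraries were at least 10 times the expected background, 2719 were called. A gene could pass on the reads of 1 group, so background within each group was not controlled. Mrc1 had means of 2067 CPM under anti-B7-H3, 1033 CPM under the combination, 265 CPM under anti-PD1 and 165 CPM under isotype control. For Mrc1, adding anti-PD1 thus went with a lower level in the presence of anti-B7-H3 and a higher one in its absence. Other macrophage genes did not all run this way. Chil3 averaged 85.9 CPM with anti-PD1 alone and 88.9 CPM with isotype control, and Cd68 28.8 and 36 CPM. Ighm ran as Mrc1 did, at 6038, 1059, 151 and 70.8 CPM. The combination lay above anti-PD1 alone for Mrc1 and Ighm. H2-Aa gave 1501, 588, 226 and 88.5 CPM, and Col1a1 6465, 4469, 4486 and 1394 CPM. Cd276 averaged 45.6, 62.2, 55.2 and 25.6 CPM in the same order.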

How the data were processed

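Whole-tumour RNA was depleted of ribosomal RNA before library construction, from samples with an integrity number of at least 7.0 and at least 500 ng, per the labels' protocols. Per the file headers, a row is a transcript and its columns give length, effective length, TPM and reads. The deposited reads are estimated counts that the authors did not scale, and only these were tested. FastQC 0.11.8 and build GRCm38 appear in the submitters' processing notes, while the quantifier and its strand setting are not given in the sources used here. Of 58083 transcripts, 57473 matched GENCODE M21. Estimated counts were summed over 22195 genes and rounded, and 12 satellite-like genes were left out before library sizes were counted. Lengths used for background and for ranking within lists are coding lengths as deposited.

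The 3 combination and 3 anti-B7-H3 libraries were compared with edgeR 4.0.16 in R 4.3.3 (TMM scaling, its expression filter, a quasi-likelihood test with a robust estimate of spread, and Benjamini-Hochberg adjustment over 12262 genes). Log2 fold changes are those of this fit, and adjusted p-values come from it unless another setting is named. The script was tested on simulated counts. Named were the antibody targets and other genes of the series title, the 15 leading called genes per direction (mean of at least 5 CPM, at least 10 times background, groups not overlapping, no predicted names), and, per list, the 3 members with the highest level per length and the 3 called members that changed most per direction, with every member of lists of at most 10 tested. A number of those are not reported here, and 17 genes are named outside the rule, chosen after their values were seen (results for Krt8, Krt18, Nefl, Ptprc, Zfp277, Ttn and defining genes of cell types). The 53 gene lists and the comparison were chosen with earlier results of these data known. For a gene without reads in a group the fold is a bound, with that group set at 3 reads in all. Ratios resting on 1 to 3 reads have a 95% interval for counting error only. Of 22 type I interferon list genes, 15 matched a promoter in the RefSeq table of GRCm38.p6, and so did 17 of 23, 22 of 27 and 13 of 17 tested members of the interferon-gamma, proliferation and muscle lists.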

Additional observations from a re-analysis of the deposited data

Results flagged for a closer look

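Adding anti-PD1 went with a different change in the presence of anti-B7-H3 than in its absence for 15 genes picked from those above. The test was the interaction test of edgeR over 12 libraries with Benjamini-Hochberg adjusted p-values. It called 42.2% of all 16088 genes tested, and named genes outside this selection are not listed in this section. The value given for each is the log2 change with anti-B7-H3 present minus that with it absent. Among antibody targets and genes of the series title it was -0.62 for Cd276 (adjusted p = 0.013), -1.91 for Pdcd1lg2, -1.22 for Cd47, -1.66 for Sirpa and -0.72 for Ctnnb1. Among macrophage genes it was -2.93 for Chil3 and -1.68 for Mrc1. H2-Aa gave -2.70, C3 -2.73, Ighm -3.61, Irf1 -2.19 and Col1a1 -2.22. The positive ones were Ifit3 at 2.02, Mki67 at 0.29 and Myh4 at 11.95. The last is a fitted value that depends on the prior count, since Myh4 had no read in the anti-B7-H3 libraries. For Mrc1, H2-Aa, Ighm, Irf1, Cd47, Sirpa and Col1a1 the level was lower with anti-PD1 when anti-B7-H3 was present and higher with it when anti-B7-H3 was absent (0.67, 1.34, 1.09, 1.31, 0.79, 0.65 and 1.69 on the log2 scale for anti-PD1 over isotype control). Those values over isotype control come from the main 12-library fit only. They were not refitted among genes well above background. Mki67 was higher with anti-PD1 in both settings. Restricted to genes well above background over the 12 libraries together, which leaves out Myh4, the values of the other 14 lay higher (Mrc1 -1.33, Ifit3 2.37). The rise was nearly the same for each of the 14, so it was not particular to single genes. Mki67 went from 0.29 to 0.64, and Cd276 was no longer called (-0.28, adjusted p = 0.33). Values as small as those of Mki67 and Cd276 thus depended on the set of genes fitted. The isotype control and anti-PD1 libraries carried most satellite-like reads, and the part of those reads in the differences was not tested.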

How the results depend on the processing

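The counts of genes called higher (2645) and lower (2793) stayed within 1.5 times under every setting tried for them except the 2-fold rule, which gave 406 and 645. They were 2412 to 2496 and 2533 to 2619 when 1 library was left out. Without a filter the median log2 fold change over all genes moved to 0.14, and with 12 libraries in 1 fit to 0.11. The interaction count fell from 6797 to 2719 among genes well above background, where fewer genes were tested. The replicate block gave 2612 and 2738 calls. Numbers shared between groups did not pair the libraries (correlations of -0.05, -0.00 and 0.02), and the block ended the call of Il18 among named genes (adjusted p = 0.056). Of 159 named genes, 149 kept their call and direction in each of the 17 settings in which they were tested. A value was present for 2700 pairs of gene and setting. Some pairs had none, such as mt-Nd6 with mitochondrially encoded genes left out. Axin2, Cdh5 and Ms4a4c, which were not called, changed sign. Axin2 ranged from -0.141 to 0.109 and Ms4a4c from -0.168 to 0.835 when 1 library was left out. Cdh5 gave 0.0145 with 12 libraries and -0.110 to 0.0792 when 1 was left out. The cause was not tested. List medians kept their sign in 47 of 53 lists. The exceptions were the neutrophil, TGF-beta, keratinocyte, pigment, Wnt target and destruction complex lists. Across settings the count of members called lower ranged from 1 to 4 for Wnt targets, 3 to 9 for nuclear respiratory genes, 5 to 9 for immediate early genes and 3 to 8 for endoplasmic reticulum stress genes. Depth left 10 of 13 keratinocyte, 9 of 13 neutrophil and 9 of 14 pigment genes untested, against 3 of 24 T cell and 4 of 12 natural killer cell genes.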

Other observations

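Red blood cell genes bear on how much blood the samples held. Hba-a1, an alpha globin gene, was the 1 of 4 tested that was called, at a mean of 38.3 CPM in anti-B7-H3 libraries and 28.7 CPM in combination libraries. Hba-a2, its near-identical copy, went from 24.6 to 28.3 CPM without passing the test, and reads shared by the pair cannot be assigned with certainty. Of the genes tested for the interaction, Cd3e (-0.61, adjusted p = 0.55), Gzma (-0.42, adjusted p = 0.74), Pdcd1 (0.67, adjusted p = 0.55) and Cd274 (-0.69, adjusted p = 0.085) were not called.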
